A study of Mus musculus with 6 samples.

Results

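Glycolysis and hypoxia response genes were followed across a parent line of mouse hepatocellular carcinoma cells and its 2 migratory derivatives. The set was a list of 39 genes chosen by function, and each gene was read from a probe set that the platform annotation assigns to it alone, taking the one with the highest mean over all arrays. Of the 39, 36 could be read this way, out of 18194 genes in all. Gpi1, Eno1 and Bnip3l had no probe set of their own and were not analysed here. The list holds 23 genes of glucose uptake, glycolysis, lactate handling and flux control, of which 21 were measured, and 16 genes of the hypoxia-inducible factor (HIF) system and its other targets, of which 15 were measured. BL185 is the parent line of hepatocellular carcinoma cells. M1 and I1 are subpopulations of BL185 selected for migration, and each is titled a subclone line. All 3 were kept in DMEM with serum, and each was hybridised to 2 Affymetrix arrays, 6 in total. Genotype and oxygen level are not given in the labels. The labels do not say that a line's arrays came from separate cultures, and p-values therefore reflect array-to-array spread alone, which could be technical. No unselected subclone was measured, so selection and subcloning cannot be told apart. Because RNA of a whole culture was measured, fewer expressing cells and less RNA per cell cannot be told apart either.

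Glycolysis splits glucose into pyruvate in the cytosol. Its upper steps spend ATP to phosphorylate and cleave the sugar, its lower steps return ATP, and lactate dehydrogenase then turns pyruvate into lactate, which leaves the cell through monocarboxylate transporters. HIF is a dimer of an oxygen-sensitive alpha subunit and the stable partner Arnt. Prolyl hydroxylases mark the alpha subunit for destruction when oxygen is present, so much of its control lies in protein stability, which arrays do not measure. The dimer binds the core sequences ACGTG and GCGTG near its target genes, among them many glycolytic enzymes, the angiogenic ligand Vegfa and the mitophagy receptors Bnip3 and Bnip3l.

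In M1, most genes of both groups had lower means than in BL185. The median log2 difference was −0.81 over 8 genes of the upper glycolytic steps, −1.32 over 10 HIF targets and −0.12 over 5 genes of the lower steps, and the difference between these groups was not tested. On M1 replicate 2 alone these medians were −0.50, −0.89 and 0.014, so the lower steps had no stable direction. The aldolase Aldoc fell 3.90-fold and alone passed the test over all genes (limma adjusted p = 0.0343). That call was lost in some alternatives, among them leaving out either BL185 array or either I1 array. Vegfa (4.97-fold lower), the ankyrin repeat protein Ankrd37 (4.62-fold), the platelet phosphofructokinase Pfkp (4.26-fold) and the stress-responsive gene Ndrg1 (3.62-fold) had large mean differences that did not pass the test over all genes. On M1 replicate 2 alone the log2 differences were −1.73 for Vegfa, −1.66 for Ankrd37, −1.27 for Pfkp and −1.42 for Ndrg1. In I1, 0 of the 36 genes passed, and the direction of the list as a whole turned with the scaling. Vegfa (2.76-fold lower), the hexokinase Hk2 (2.67-fold), the neuronal enolase Eno2 and Ndrg1 had I1 arrays below the parent at an unadjusted limma p under 0.05. The size is not exact for Eno2, which read near background there. Nor is it for Ndrg1 in either line, since Ndrg1 read near the array top in BL185. Its 4 other probe sets differed by −3.36 to −1.93 in M1. By overlap alone, I1 lay below the parent for 16 members (44.4%, against 33.5% of all genes) and above it for 9 (25.0%, against 42.6%). Among those above were Slc16a3 (0.58 log2 units), Ldhb (0.43), the hydroxylase Egln3 and Pfkfb4 (0.38 each) and Higd1a (0.37). Other probe sets of Higd1a differed by −0.43 and −0.01 in I1. The lower glycolytic enzymes Pgam1 and Pkm differed by 0.06 and 0.13. The genes read near the top of the arrays, Gapdh, Pgk1 and Ldha, had changes under 0.3 log2 units in both lines on the probe sets used. Other probe sets differed by more, for Pgk1 by −0.45 and −0.32 in M1, and for the 5′ end of Gapdh by −0.38 in M1 and −0.43 in I1.

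The arrays of M1 were not alike. Across all probe sets (these are no independent replicates) they correlated at r = 0.911, against 0.997 in BL185 and 0.994 in I1, and M1 replicate 1 had the narrowest spread of signals (SD 1.62 against 1.83 to 1.97 on the other 5 arrays). On that array the difference from BL185 followed the signal level: in 40 bins of 454 or 455 genes each, the median ran from 0.51 at a mean log2 signal of 7.89 to −1.14 at 10.32. On M1 replicate 2 the bin medians stayed between −0.10 and 0.08, and in I1 between −0.28 and 0.20. The 3′ probe set of 18S ribosomal RNA read 10.11 and 10.14 in the BL185 arrays, 12.50 and 10.68 in M1 and 11.27 and 11.51 in I1. The part of these array differences in the results was not tested, so the leading M1 results are also given with M1 replicate 2 alone. The epithelial keratins Krt8 and Krt18 and the liver transcription factor Hnf4a gave log2 signals of 11.9 or more on every array, whereas the hepatocyte product Alb read 7.53 to 8.43, close to the array medians of 7.87 to 8.11. Among the markers of other cells, the macrophage gene Cd68 fell in M1 and I1 (log2 change −3.21 and −3.05, limma adjusted p = 0.0148 and 0.0262). Cd53 fell in M1 (−1.66, adjusted p = 0.0469) and differed by −1.46 in I1 (adjusted p = 0.0766). These were the called members of the 6 leukocyte markers measured, whose mean log2 signal was 8.70 and 8.74 in BL185, 7.90 and 8.46 in the M1 arrays and 8.12 and 8.26 in I1, with the pan-leukocyte gene Ptprc at 6.25 to 7.17. The 5 bile duct and progenitor markers measured had a mean of 10.99 and 11.09 in the BL185 arrays, 10.08 and 10.18 in M1 and 10.33 and 10.38 in I1. Of these, Sox9 fell in M1 (−2.06, limma adjusted p = 0.0343) and Prom1 in both lines. The I1 difference of Sox9 was −1.35 (adjusted p = 0.0996). The bile duct keratin Krt19 read 14.59 to 15.08 over the arrays, with changes of −0.31 in M1 and 0.07 in I1. Epcam (0.39 and 0.42) and Krt7 (0.35 and 0.18) had higher means in M1 and I1, and these 3 were not called. Of 9 hepatocyte and hepatocellular carcinoma markers, 1, the fibrinogen chain Fgb, passed in M1 (−1.78, limma adjusted p = 0.0469). In I1 Fgb differed by −1.93 (adjusted p = 0.0501). Among the fibroblast and endothelial markers, 0 of 7 and 0 of 4 passed in either line. The part of these marker differences in the results below was not tested.

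**Figure D1:**
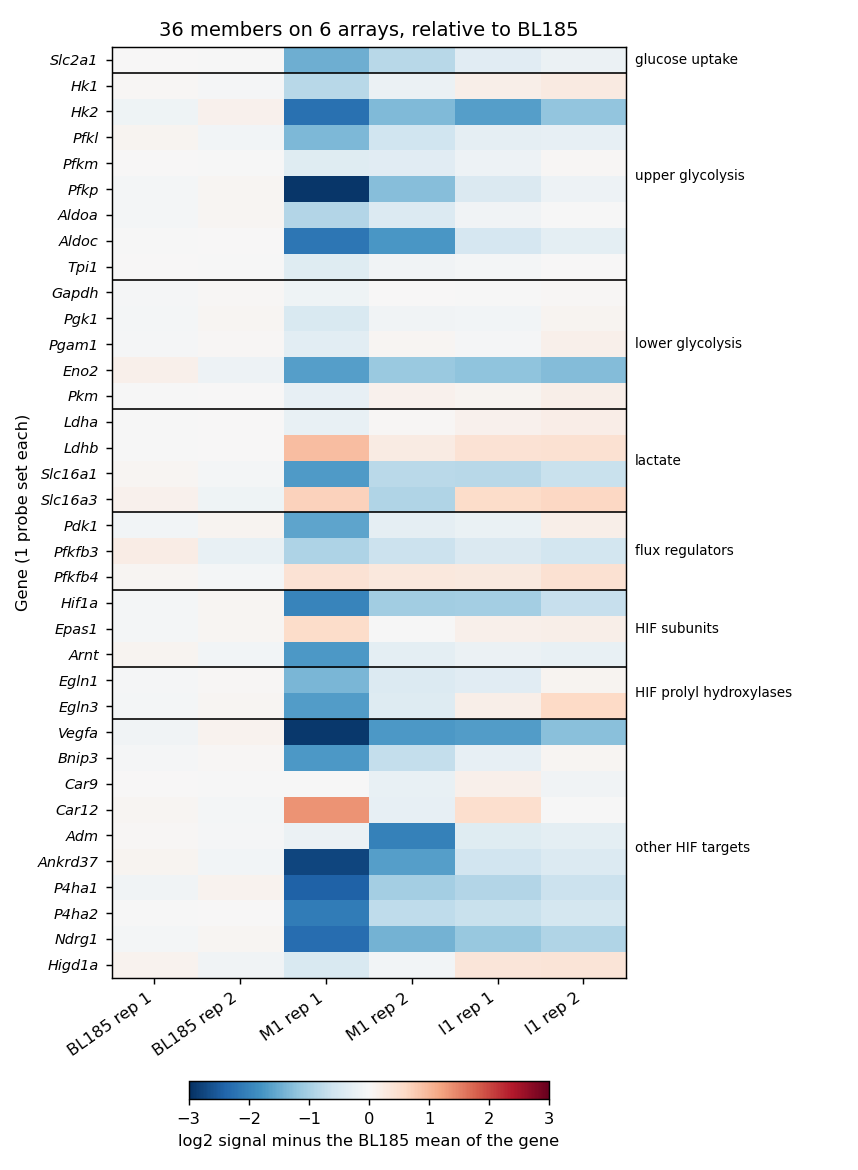
Log2 signal of each of the 36 measured genes (rows, ordered by role) on each of the 6 arrays (columns), minus the gene's mean in BL185; blue is lower and red is higher. M1 replicate 1 is the bluest column, with a median of −1.13 over the 36 genes, against −0.42 on M1 replicate 2 and −0.19 and −0.02 on the I1 arrays.

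Against BL185, 32 of the 36 genes had a lower mean in M1, with a median log2 change of −0.91, whereas 44.5% of all genes were lower and the median over all genes was 0.07. The 21 glycolysis genes had a median of −0.50, with 19 lower, and the 15 HIF genes one of −1.11, with 13 lower. After quantile normalization 26 of the 36 were lower, and the medians were −0.18 over the glycolysis genes, with 13 lower, and −0.85 over the HIF genes, with 13 lower. On M1 replicate 2 alone these medians were −0.34 and −0.71, and all 15 HIF genes were below their BL185 mean. With limma on all 6 arrays and Benjamini-Hochberg adjusted p-values held to 0.05, Aldoc alone passed, 1 of the 36, where 0.879% of all genes did (0.605% lower and 0.275% higher). At an unadjusted p under 0.05 with M1 and BL185 arrays that did not overlap, 16 of 36 genes were lower (44.4%, against 11.5% of all genes) and 0 were higher (against 3.92%). By overlap alone, both M1 arrays lay below both parent arrays for 25 genes (69.4%, against 25.7%) and above them for 2 (5.56%, against 26.2%). Without M1 replicate 1 the line rests on 1 array, whose spread is borrowed from BL185 and I1. In that fit 18 of the 36 passed, each of them lower, where 12.3% of all genes were called lower and 11.7% higher. Of these, 10 were lower by at least 1 log2 unit (27.8%, against 3.26%), and 0 were higher by as much (against 3.79%).

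Since differences on M1 replicate 1 followed the signal level, the members were also set beside genes of like signal, a description chosen after the values were seen. On M1 replicate 2, 33 of the 36 lay below the median of their bin and 18 lay below its 10th percentile, while 0 lay above its 90th. On M1 replicate 1, 25 lay below the bin median, 12 below the 10th percentile and 1, Car12, above the 90th. In I1, 20 lay below the median and 5 below the 10th percentile, namely Hk2, Eno2, Hif1a, Vegfa and Ndrg1, and 1, Slc16a3, above the 90th.

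**Figure D2:**
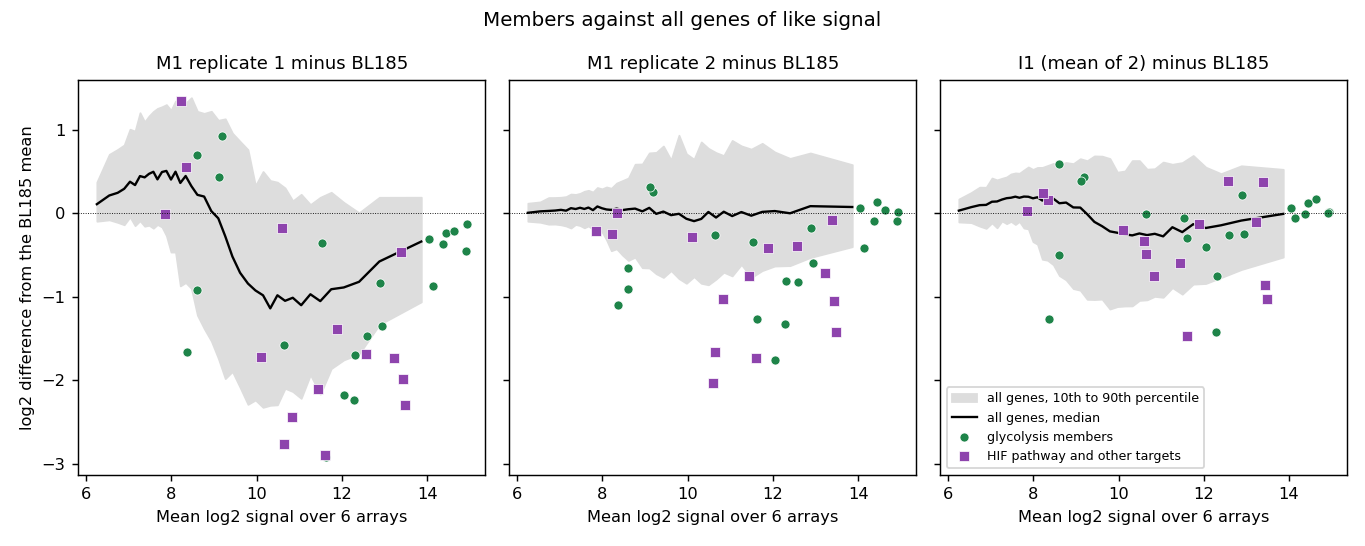
Log2 difference from the BL185 mean (vertical axis) against the mean log2 signal over 6 arrays (horizontal axis), for M1 replicate 1, M1 replicate 2 and the mean of the I1 arrays. The line and the grey band are the median and the 10th to 90th percentile of all genes in 40 bins, circles are glycolysis genes and squares are HIF genes. On M1 replicate 2 the line is flat and 18 of 36 members lie below the 10th percentile of their bin, while on M1 replicate 1 the line itself dips to −1.14.

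Many members hold the HIF core sequences near a transcription start. The list was chosen by function and includes known HIF targets, so a share above that of all genes is no independent support. In RefSeq windows of GRCm38.p6 from 250 bases before to 50 after a transcription start, ACGTG or GCGTG on either strand was found in 31 of the 34 measured genes with a window (91.2%; no window for Epas1 and Ndrg1), against 59.3% of all tested genes with one. Eno2, Tpi1 and Car12 held neither in this window. ACGTG alone was found in 24 of 34 (70.6%, against 26.1%). Some members have several windows, and the windows are rich in G and C (median 61.7%, against 58.3%), and the palindrome CACGTG, the E-box that MYC family proteins bind, counts as ACGTG on both strands. CACGTG itself was present in 6 of 34 (17.6%, against 10.2%). A match is a description of the letters and not a site in use. The 250 bases before the start are shown for the gene called in M1 (Aldoc), for Ankrd37, and for Pgk1 and Ldha, which hold the motif and read near the top of the arrays in every line. Aldoc and Ldha each have a second annotated start, and the stretch before the first is shown. Capitals mark ACGTG and GCGTG and their reverse complements, CACGT and then CACGC.
Aldoc, chr11:78322823-78323072, plus strand: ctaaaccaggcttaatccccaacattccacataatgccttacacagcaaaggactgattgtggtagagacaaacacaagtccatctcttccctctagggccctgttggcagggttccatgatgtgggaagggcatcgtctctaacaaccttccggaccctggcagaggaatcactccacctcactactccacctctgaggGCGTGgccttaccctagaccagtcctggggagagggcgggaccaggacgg
Ankrd37, chr8:45999851-46000100, minus strand: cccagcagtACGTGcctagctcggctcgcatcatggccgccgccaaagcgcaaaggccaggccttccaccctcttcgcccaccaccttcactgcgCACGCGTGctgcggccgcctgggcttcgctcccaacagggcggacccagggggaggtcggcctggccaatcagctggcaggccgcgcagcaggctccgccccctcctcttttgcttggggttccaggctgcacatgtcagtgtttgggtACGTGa
Pgk1, chrX:106186850-106187099, plus strand: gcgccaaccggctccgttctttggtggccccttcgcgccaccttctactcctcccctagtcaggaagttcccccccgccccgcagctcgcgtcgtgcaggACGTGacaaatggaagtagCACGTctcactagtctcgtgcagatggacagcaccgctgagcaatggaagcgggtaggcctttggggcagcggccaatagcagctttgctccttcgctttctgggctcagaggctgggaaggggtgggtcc
Ldha, chr7:46845554-46845803, plus strand: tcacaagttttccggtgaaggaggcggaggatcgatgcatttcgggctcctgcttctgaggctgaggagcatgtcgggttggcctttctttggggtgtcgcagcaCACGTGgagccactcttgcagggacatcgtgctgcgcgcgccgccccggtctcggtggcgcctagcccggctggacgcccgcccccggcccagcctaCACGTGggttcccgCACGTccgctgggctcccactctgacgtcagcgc
Ankrd37 holds 4 matches in this stretch, Pgk1 2, Ldha 5 and Aldoc 1, and 2 more of Ldha and of Aldoc lie after that start. The 250 bases before the second start hold 1 match in Aldoc, at chr11:78323948-78324197, and 1 in Ldha, at chr7:46846832-46847081, with 1 more of Ldha after it. Overlapping matches were counted separately. Beside these letters, the M1 differences were −2.21 for Ankrd37, −0.27 for Pgk1, −0.09 for Ldha and −1.96 for Aldoc.

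Glucose enters through the transporter Slc2a1. It gave a log2 signal of 13.07 and 13.05 in BL185, 11.59 and 12.24 in the M1 arrays and 12.72 and 12.89 in I1. Both M1 arrays lay below both arrays of either other line (M1 minus BL185 −1.15 ± 0.26, SE, limma adjusted p = 0.146, and −0.82 ± 0.14 with an adjusted p of 0.000547 without M1 replicate 1). Its 2 other probe sets differed by −1.26 and −1.30 in M1.

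Hexokinases trap glucose by phosphorylation. Hk2, the inducible form, gave 13.23 and 13.48 in the BL185 arrays, 11.12 and 12.02 in M1 and 11.71 and 12.16 in I1. It was lower in both selected lines, whose arrays overlapped each other (M1 −1.78 ± 0.36, adjusted p = 0.114, and I1 −1.42 ± 0.36, adjusted p = 0.213). On M1 replicate 2 alone the M1 difference of Hk2 was −1.33. Hk1, the housekeeping form, gave 13.02 and 12.96 in BL185, 12.16 and 12.81 in the M1 arrays and 13.16 and 13.26 in I1. The selected lines thus lay on opposite sides of the parent for Hk1, with an M1 difference of −0.17 on replicate 2 alone (adjusted p = 0.477). Its second probe set, by contrast, was lower in both lines (−1.37 and −0.87).

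Phosphofructokinase catalyses the committed step and has 3 subunit genes. Pfkp gave 12.36 and 12.47 in the BL185 arrays, 9.50 and 11.14 in M1 and 11.97 and 12.26 in I1. Its M1 arrays differed from each other by more than a log2 unit, and both lay below every other array (−2.09 ± 0.54, adjusted p = 0.184, and −1.27 ± 0.15 with an adjusted p of 2.49e-05 without M1 replicate 1). In I1 it differed by −0.30, while a dimmer probe set differed by −1.10 in M1 and −0.93 in I1 (unadjusted p = 0.0028 and 0.00587). The liver form Pfkl gave 13.43 and 13.27 in BL185, 11.995 and 12.76 in the M1 arrays and 13.09 and 13.10 in I1. Again both M1 arrays were the lowest (−0.97 ± 0.29, adjusted p = 0.229, and −0.59 with an adjusted p of 0.00618 without M1 replicate 1). The muscle form Pfkm differed least of the 3, with −0.35 ± 0.17 in M1 and −0.06 ± 0.17 in I1.

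Aldolases cleave fructose bisphosphate. Aldoc, the brain-type isoenzyme, gave 12.82 and 12.84 in the BL185 arrays, 10.65 and 11.08 in M1 and 12.32 and 12.53 in I1. M1 stood below both other lines with no overlap, and the M1 difference passed over all genes (−1.96 ± 0.22, limma adjusted p = 0.0343, and −1.75 with an adjusted p of 5.84e-07 without M1 replicate 1). Over the alternatives the log2 change ran from −2.18 to −1.47 and the adjusted p from 1.87e-08 to 0.566, and the call was lost without either BL185 array (0.557 and 0.566), without either I1 array (0.22 each), with BL185 and M1 arrays alone (0.22) and with the replicate number as a block (0.0676). The I1 difference was −0.41 ± 0.22, and I1 minus M1 was 1.56 with an unadjusted p of 0.000638 and an adjusted p of 0.401. Aldoa, the ubiquitous isoenzyme, gave 14.32 and 14.44 in BL185, 13.51 and 13.96 in the M1 arrays and 14.28 and 14.36 in I1. It was lower on both M1 arrays by a smaller amount (−0.65 ± 0.22, adjusted p = 0.271, and −0.42 with an adjusted p of 0.0428 without M1 replicate 1), and its 4 other probe sets differed by −0.82 to −0.38. Triose phosphate isomerase, Tpi1, differed by −0.23 ± 0.18 in M1 and −0.01 ± 0.18 in I1. All 8 measured genes of the upper steps had a lower mean in M1, with a median of −0.81, or −0.50 on M1 replicate 2.

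The lower steps differed less. Pgk1, which makes the first ATP of the pathway, gave 14.96 and 15.07 in the BL185 arrays, 14.56 and 14.92 in M1 and 14.93 and 15.09 in I1 (M1 −0.27 ± 0.20, adjusted p = 0.47). Its M1 arrays were just below the BL185 arrays, and its I1 arrays overlapped them. The other probe sets of Pgk1 differed by −0.45 and −0.32 in M1 and by −0.10 and −0.01 in I1. The phosphoglycerate mutase Pgam1 differed by −0.12 ± 0.21 and 0.06 ± 0.21 in M1 and I1, the pyruvate kinase Pkm by −0.06 ± 0.20 and 0.13 ± 0.20, and Gapdh by −0.06 ± 0.17 and 0.02 ± 0.17. Gapdh could be read only from the array's control probe sets, and the 1 used lies at the 3′ end. The 5′ control probe set of the same gene differed by −0.38 in M1 and −0.43 in I1, and the 3′ minus 5′ difference was 0.26 and 0.17 in BL185, 0.64 and 0.43 in the M1 arrays and 0.76 and 0.55 in I1. Eno2, the neuronal enolase, was unlike the rest of the lower steps. It gave 9.40 and 9.11 in the BL185 arrays, 7.60 and 8.15 in M1 and 8.04 and 7.95 in I1. All 4 arrays of the selected lines lay below the parent, at values near the array medians where a size is not exact (M1 −1.38 ± 0.25, adjusted p = 0.0926; I1 −1.26 ± 0.25, adjusted p = 0.144). On M1 replicate 2 alone the M1 difference of Eno2 was −1.10.

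Several glycolytic enzymes read near the top of the arrays, where differences can be compressed. Within 1 log2 unit of the highest value of the array stood Gapdh, Pgk1 and Ldha on all 6 arrays and Aldoa, Pkm, Tpi1 and Ndrg1 on some, against 65 to 115 of all 18194 genes per array. Pgk1 lay 0.271 to 0.73 below the top, Gapdh 0.377 to 0.475 and Ldha 0.547 to 0.898. A difference in these genes can be larger than the arrays show, and a small change does not show that their RNA was level. Pseudogene copies are known for several of them, and the annotation assigns 3 more Gapdh probe sets to Gapdh together with other loci, pseudogenes among them.

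Lactate dehydrogenase A, Ldha, gave 14.59 and 14.63 in BL185, 14.40 and 14.65 in the M1 arrays and 14.73 and 14.81 in I1. The M1 arrays straddled the parent and the I1 arrays were slightly above it (−0.09 ± 0.18 and 0.16 ± 0.18). Ldhb, which favours the reverse reaction, had a higher mean in both lines (0.59 ± 0.26 and 0.43 ± 0.26, adjusted p = 0.371 and 0.629). The lactate transporter Slc16a1 gave 13.06 and 12.92 in the BL185 arrays, 11.29 and 12.17 in M1 and 12.15 and 12.32 in I1. Both selected lines were below the parent (M1 −1.26 ± 0.32, limma adjusted p = 0.184, and I1 −0.75 ± 0.32, adjusted p = 0.477). On M1 replicate 2 alone the M1 difference of Slc16a1 was −0.81. The exporter Slc16a3 read 9.13 and 7.53 on the M1 arrays, above and below the 8.56 and 8.31 of BL185, so its M1 direction rests on the array chosen. In I1 it was higher on both arrays (0.58 ± 0.52, adjusted p = 0.713).

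Of the 3 flux regulators, Pfkfb3, which makes the activator of phosphofructokinase, gave 9.28 and 8.81 in BL185, 8.13 and 8.39 in the M1 arrays and 8.61 and 8.48 in I1. Its arrays did not overlap between M1 and BL185 (−0.78 ± 0.23, limma adjusted p = 0.229, and −0.65 without M1 replicate 1). The M1 values of Pfkfb3 read near the array medians, where a size is not exact. Its other probe set, also near the medians, differed by 0.21 in M1 and 0.20 in I1, so the direction was not the same on both. Pfkfb4 had a higher mean in both lines (0.37 ± 0.18 and 0.38 ± 0.18). Pdk1, which inhibits pyruvate dehydrogenase, differed by −0.92 ± 0.45 in M1 and −0.01 ± 0.45 in I1, with −0.26 on M1 replicate 2. Another of its probe sets differed by −1.43 in M1 and −0.81 in I1 (unadjusted p = 0.00127 and 0.0144), and the remaining 2 by −1.47 and −0.16 in M1 and 0.12 and −0.12 in I1, so its I1 value depends on the probe set.

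**Figure D3:**
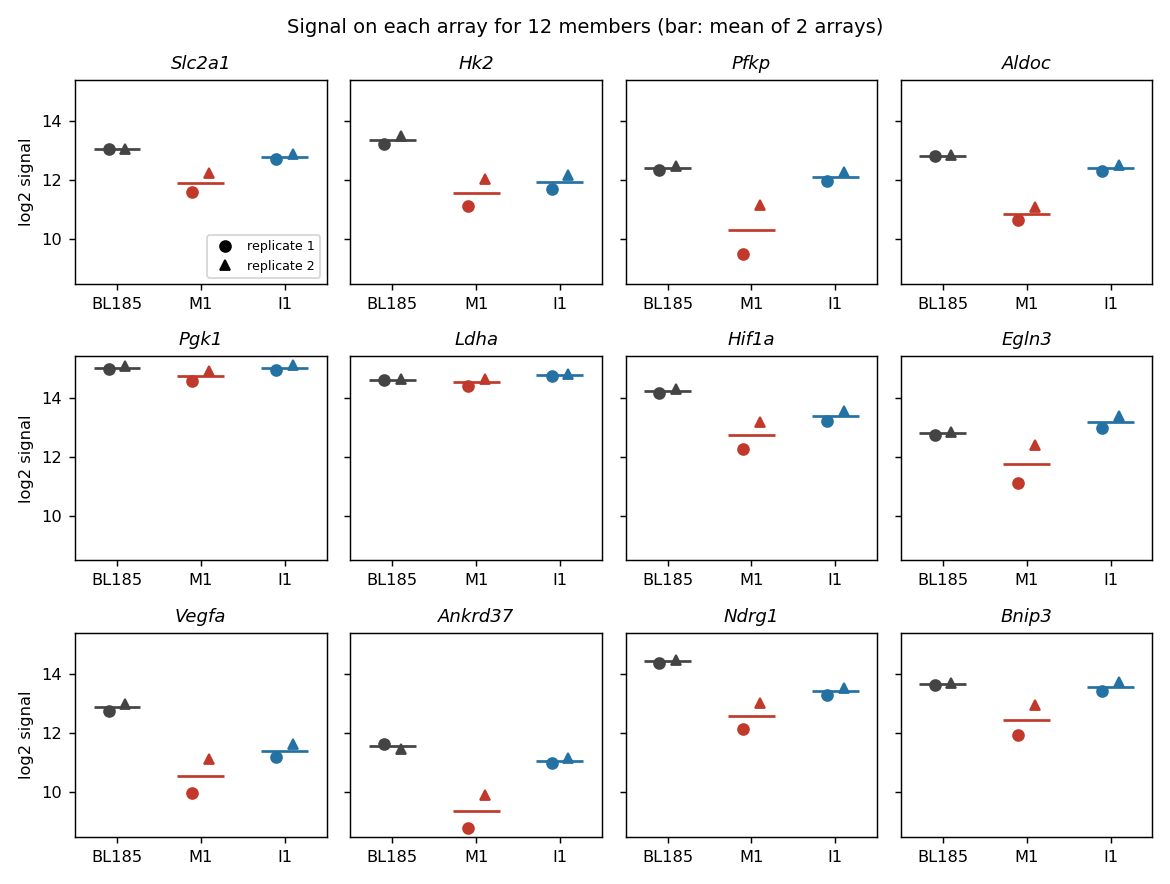
Log2 signal (vertical axis) of 12 members in BL185, M1 and I1; circles are replicate 1, triangles replicate 2 and bars the mean of the 2 arrays. Pgk1 and Ldha sit near the top of the scale in all lines, Aldoc is lowest in M1 with 10.65 and 11.08 and in I1 lies below BL185 by less, and Vegfa, Hk2 and Ndrg1 are lower in both selected lines.

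Among the HIF subunits, the transcript of the alpha subunit Hif1a was lower in both lines. It gave 14.16 and 14.30 in the BL185 arrays, 12.25 and 13.18 in M1 and 13.21 and 13.54 in I1. M1 lay below I1 and I1 below BL185 with no overlap of arrays (M1 −1.51 ± 0.35, adjusted p = 0.147; I1 −0.86 ± 0.35, adjusted p = 0.441). On M1 replicate 2 alone the M1 difference of Hif1a was −1.05. Of its 3 other probe sets, 2 were lower by more (−2.51 and −1.87 in M1, −1.46 and −2.04 in I1), and 1 differed by 0.12 and −0.05. The last read near the array medians on every array, and the probe set with −1.87 read 9.22 and 9.55 in BL185 and near the medians in M1 and I1. Epas1, the other alpha subunit, read 8.13 to 8.75 on all arrays, near the array medians, with 0.28 ± 0.24 in M1. Its other probe set went the opposite way (−1.13 in M1 and −0.92 in I1, unadjusted p = 0.00342 and 0.00806), so no direction is given for it. Arnt differed by −1.0 ± 0.47 in M1, −0.29 on M1 replicate 2 and −0.20 ± 0.47 in I1.

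Both hydroxylase genes are themselves HIF targets. Egln3 gave 12.73 and 12.85 in BL185, 11.11 and 12.40 in the M1 arrays and 12.96 and 13.38 in I1. M1 lay below and I1 above the parent, with I1 minus M1 at 1.41 (unadjusted p = 0.0235, adjusted p = 1), and neither difference from BL185 passed over all 6 arrays (−1.03 ± 0.45 and 0.38 ± 0.45, adjusted p = 0.359 and 0.759). Egln1, the main oxygen sensor, differed by −0.90 ± 0.36 in M1, −0.42 on M1 replicate 2 and −0.13 ± 0.36 in I1.

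Of the remaining HIF targets, Vegfa and Ndrg1 were lower in both lines. Vegfa gave 12.76 and 12.98 in the BL185 arrays, 9.98 and 11.14 in M1 and 11.19 and 11.62 in I1 (M1 −2.31 ± 0.42, adjusted p = 0.0922; I1 −1.46 ± 0.42, adjusted p = 0.261), and its second probe set differed by −1.53 and −1.47. Ndrg1 gave 14.39 and 14.49 in BL185, 12.15 and 13.02 in the M1 arrays and 13.29 and 13.54 in I1 (M1 −1.85 ± 0.32, adjusted p = 0.085; I1 −1.02 ± 0.32, adjusted p = 0.312). The parent values of Ndrg1 are close to the array top, and its 4 other probe sets, which read lower on the scale, differed by −3.36 to −1.93 in M1 and −2.12 to −0.81 in I1. Where every probe set was tested, an alternative added after the data were seen, 1 of these fell in M1 (−2.63 ± 0.24, adjusted p = 0.0314). On M1 replicate 2 alone the M1 differences were −1.73 for Vegfa and −1.42 for Ndrg1.

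Ankrd37 and Bnip3 differed from BL185 by more in M1 than in I1 on the probe sets used. Ankrd37 gave 11.63 and 11.47 in the BL185 arrays, 8.79 and 9.89 in M1 and 10.98 and 11.15 in I1, so that M1 lay at least a log2 unit below every array of the other lines (−2.21 ± 0.38, adjusted p = 0.0837, and I1 −0.49 ± 0.38). Bnip3 gave 13.63 and 13.71 in BL185, 11.94 and 12.95 in the M1 arrays and 13.41 and 13.72 in I1, with I1 overlapping the parent (M1 −1.22 ± 0.36, adjusted p = 0.231). The collagen prolyl hydroxylase subunits P4ha1 and P4ha2 were lower in both lines. P4ha1 gave 11.56 and 11.75 in the BL185 arrays, 9.22 and 10.63 in M1 and 10.79 and 11.01 in I1 (M1 −1.73 ± 0.47, adjusted p = 0.202; I1 −0.76 ± 0.47, adjusted p = 0.637). Its other probe set, which read near the array medians in both selected lines, differed by −1.69 in M1 and −1.90 in I1 (unadjusted p = 0.00201 and 0.00117), so the order of the lines for P4ha1 depends on the probe set. P4ha2 gave 12.10 and 12.13 in BL185, 10.01 and 11.36 in the M1 arrays and 11.44 and 11.60 in I1 (M1 −1.43 ± 0.45, adjusted p = 0.247; I1 −0.60 ± 0.45, adjusted p = 0.68). On the probe sets used, the arrays of all 3 lines for both genes were in the order M1, I1, BL185 with no overlap. Without M1 replicate 1, all 4 fell in M1: Ankrd37 by 1.66 (adjusted p = 1.13e-06), Bnip3 by 0.71 (0.00327), P4ha1 by 1.02 (0.000161) and P4ha2 by 0.75 (0.00106). Adrenomedullin, Adm, differed by −2.03 on M1 replicate 2 and much less on M1 replicate 1 (10.89 against 11.11 and 11.02 in BL185; adjusted p = 0.42 on all arrays and 8.63e-08 without M1 replicate 1), and its other probe set was lower on both (−1.98 ± 0.32, adjusted p = 0.0795 over every probe set).

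The last targets read near background or showed no clear difference. The carbonic anhydrase Car9, a common marker of hypoxic cells, gave 7.91 and 7.88 in the BL185 arrays, 7.88 and 7.68 in M1 and 8.05 and 7.80 in I1, all within the range of the array medians or below it, so its level cannot be told from background. Car12 was also near the medians apart from 9.31 on M1 replicate 1, and its 3 probe sets differed in direction. The 1 used gave 0.54 in M1 and 0.24 in I1, another gave 0.41 and 0.19, and the third gave −0.74 and −1.17 (unadjusted p = 0.00432 and 0.000523). Higd1a, a mitochondrial protein, differed by −0.27 ± 0.21 in M1 and 0.37 ± 0.21 in I1. Its other probe sets, which read lower on the scale, differed by −0.92 and −0.18 in M1 and by −0.43 and −0.01 in I1. The I1 direction of Higd1a thus depends on the probe set.

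**Figure D4:**
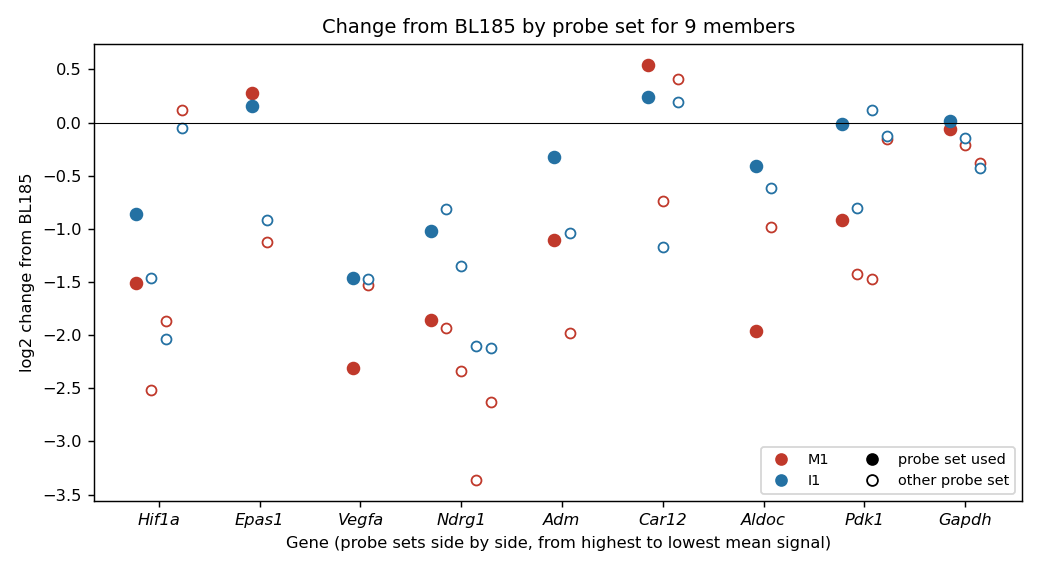
Log2 change from BL185 (vertical axis) in M1 (red) and I1 (blue) for each probe set of 9 members, side by side from the highest to the lowest mean signal; filled points are the probe sets used. Those of Vegfa, Ndrg1, Adm and Aldoc lie below 0 in both lines, while those of Epas1 and Car12 lie on both sides.

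In I1, 23 of 36 members had a lower mean than in BL185, with a median of −0.08 over the members, −0.01 over the glycolysis genes and −0.20 over the HIF genes, beside 0.06 over all genes. With quantile normalization the median over the members was 0.02, so the direction of the whole list in I1 depends on the scaling. By limma over 6 arrays, 0 of 36 members passed in I1 (0.511% of all genes did, 0.319% lower and 0.192% higher). There were 4 that met an unadjusted p under 0.05 with arrays that did not overlap, Hk2, Eno2, Vegfa and Ndrg1, all lower (11.1%, against 7.47% of all genes), and 0 higher (against 4.18%). By overlap alone, I1 lay below the parent for 16 members (44.4%, against 33.5%) and above it for 9 (25.0%, against 42.6%). The 4 arrays of BL185 and I1 fitted alone do not carry the spread of M1, and there 12 members were called lower (33.3%, against 24.1% of all genes) and 5 higher (13.9%, against 22.5%). The 12 were Hk2, Aldoc, Eno2, Slc16a1, Pfkfb3, Hif1a, Vegfa, Adm, Ankrd37, P4ha1, P4ha2 and Ndrg1, and the 5 were Ldhb, Slc16a3, Pfkfb4, Egln3 and Higd1a. At least 1 log2 unit lower were 4 (11.1%, against 5.82%), and at least 1 higher were 0 (against 2.45%). The comparisons of M1 and I1 with BL185 share the same parent arrays.

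Set against each other, I1 was above M1 for 33 of 36 members, with a median of 0.65 beside −0.00 over all genes, and the arrays did not overlap for 23 of them (63.9%, against 8.13% of all genes), with I1 below M1 for 0 (against 7.96%). Over 6 arrays 0 members passed by limma (0% of all genes did, and 2.25% had an unadjusted p under 0.05), and 10 had an unadjusted p under 0.05 with I1 arrays above M1 (against 1.83% of all genes) and 0 with I1 below (against 0.418%). Without M1 replicate 1 the median was 0.26, and 9 members were called higher in I1 (25.0%, against 7.19% of all genes) and 0 lower (against 13.4%). By at least 1 log2 unit, 4 were higher (against 0.786%) and 0 lower (against 1.24%). The 9 were Slc2a1, Pfkp, Aldoc, Slc16a3, Egln3, Bnip3, Adm, Ankrd37 and Higd1a. Hk2, Eno2, Hif1a and Vegfa were not among them. On M1 replicate 1, by contrast, Slc16a3 (9.13) and Adm (10.89) lay above both I1 arrays (8.98 and 9.06, and 10.71 and 10.77). Their direction between I1 and M1 thus rests on the M1 array chosen.

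Other genes of the pathways were taken from lists in the same fits. Of 33 measured further HIF targets, 1 of which (Pfkfb3) is also a member, 26 had a lower mean in M1 (78.8%, against 44.5% of all genes) with a median of −0.96, or −0.41 without M1 replicate 1. Of these 33, 1 fell and 0 rose, where 0.605% of all genes were called lower and 0.275% higher. It was the lipoprotein receptor Vldlr, with 12.55 and 12.56 in BL185, 10.35 and 10.88 in the M1 arrays and 11.42 and 11.17 in I1 (M1 −1.94 ± 0.24, adjusted p = 0.0466). In I1 their median was −0.25 with 0 called, where 0.511% of all genes were. The 12 regulators of HIF had a median of −0.40 in M1 and −0.02 in I1, or −0.02 in M1 without M1 replicate 1, with 0 called. Of the other glycolytic isoenzymes and transporters, 15 were measured, with medians of 0.17 and 0.10 and 0 called. The genes of pyruvate entry and use in mitochondria (12 measured, medians −0.41 and −0.35) included the kinases Pdk2, Pdk3 and Pdk4. Like the pentose phosphate branch (6, −0.31 and 0.01) and gluconeogenesis (7, 0.10 and 0.45), they had 0 called in either line. Without M1 replicate 1 the M1 medians were −0.18 for pyruvate entry and use and 0.098 for the pentose branch, whose sign thus turned. Those for gluconeogenesis and the other isoenzymes were 0.063 and 0.071.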

How the data were processed

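Trizol RNA was labelled by a 3′ IVT protocol for Affymetrix arrays, per the labels' protocols. The authors deposited log2 signals, 1 per probe set and array, made with RMA and the affy package per the submitters' processing notes. The versions, the background step and the chip definition file used were not given in the sources used here. The log2 scale was read from the range of values, 5.80 to 15.43. Precision is limited by how few arrays there are. Of 45101 probe sets, 34958 named 1 gene, 932 several and 9211 none, and 34754 were matched by Entrez identifier to RefSeq genes of GRCm38.p6 with 0 symbols changed. The probe set with the highest mean stood for a gene (18194 genes), control probe sets included, which is how Gapdh was read. Unused columns of sample values numbered 0.

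Arrays were grouped by their titles. A model with 1 mean for each line was fitted to the 6 arrays with limma 3.58.1 (R 4.3.3), with 3 residual and 2.27 prior degrees of freedom, and checked on simulated data. Contrasts were tested with eBayes, two-sided, with Benjamini-Hochberg adjustment over all genes within a contrast and a threshold of 0.05, and errors are SEs of this fit. The members and lists were chosen with earlier results of these data known. Values by array are given for genes called in any contrast, for those with an unadjusted p under 0.05 and no overlap of arrays with BL185, and for 10 genes whatever they showed, 20 in all. Values of Hk1, Slc16a3 and Adm were added after they were seen. Of 47 other probe sets of the members, 2 went the opposite way at an unadjusted p under 0.05 in M1 and 2 in I1. Alternatives were other normalizations, 50 added to the linear value, averaging probe sets, a floor of 8 on the mean log2 signal, no control probe sets, trend, array weights, the replicate block, only the lines compared, each array left out and, added after the data were seen, every probe set. Python 3.11.15, pandas 2.3.3, numpy 2.4.6 and matplotlib 3.10.9 were used for the summaries and figures.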

Additional observations from a re-analysis of the deposited data

Results flagged for a closer look

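Hk1 and Egln3 stood out because every M1 array lay on the lower side of the parent and every I1 array on the upper side. For Hk1, I1 exceeded M1 by 0.72 log2 units (limma unadjusted p = 0.0364, adjusted p = 1), and without M1 replicate 1 the gene did not pass. For Egln3 the difference was 1.41 (unadjusted p = 0.0235, adjusted p = 1), and it passed without M1 replicate 1. Each line had 2 arrays, too few to test an array for standing apart.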

How the results depend on the processing

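With 2 arrays a line, and a root mean square SD between arrays of 0.65 in M1 against 0.10 in BL185 and 0.16 in I1, counts of calls moved with the processing far more than directions. For M1 and then I1 against the parent, and last I1 minus M1, the genes called were 160, 93 and 0 as deposited, 1820, 1583 and 52 after cyclic loess, and 1170, 980 and 4 after quantile normalization. The members called were 1, 0 and 0 as deposited, 14, 5 and 1 after cyclic loess, and 10, 3 and 0 after quantile normalization. The share of M1 calls that were higher was 31.2%, 46.0% and 52.6% in these scalings, and of I1 calls 37.6%, 48.5% and 59.1%. Cyclic loess gave a median of −0.54 over the members in M1 and −0.094 over HIF genes in I1. Quantile normalization gave −0.18 over glycolysis genes in M1, and 0.016 over all members and −0.065 over HIF genes in I1. Median centring called 241 genes in M1. A minimum mean of 8 called 1 gene in I1 minus M1. The mean of probe sets called 338 genes and 4 members in M1, with I1 medians of −0.20, −0.15 and −0.38 over all, glycolysis and HIF members. Array weights called 312 genes and 3 members in M1, 8550 and 16 in I1, and 2 genes in I1 minus M1. With only the lines compared, 0 genes and 0 members were called in M1 and 8482 and 17 in I1. Replicate numbers showed no pairing common to the 3 lines: the differences between replicates correlated at −0.131 (BL185 with M1), 0.161 (BL185 with I1) and 0.369 (M1 with I1) across genes. Whether M1 and I1 share a replicate effect was not tested. With the replicate number as a block, 38 genes and 0 members were called in M1 and 1 gene in I1. Every probe set gave 2 members in M1. Within 2 log2 units of the array top lay 14 members on at least 1 array, against 7 within 1.

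Leaving out 1 array at a time gave 0 to 12879 genes and 0 to 30 members in M1, 0 to 8482 and 0 to 17 in I1, and 0 to 10365 and 0 to 29 in I1 minus M1. The medians ran from −1.13 to −0.42 over all members, −0.83 to −0.34 over glycolysis genes and −1.72 to −0.71 over HIF genes in M1, from −0.19 to −0.021 over all members, −0.11 to 0.031 over glycolysis genes and −0.33 to −0.17 over HIF genes in I1, from 0.26 to 0.82 over all members, 0.15 to 0.42 over glycolysis genes and 0.29 to 1.27 over HIF genes in I1 minus M1. The calls of 0 came from leaving out a BL185 or I1 array, and the high counts from leaving out an M1 array. Aldoc in M1, the only member that passed on the deposited values with all arrays, stayed lower than BL185 under the alternatives run. The sign for Slc16a3 in M1 turned with the array left out. Its log2 difference from BL185 was −0.90 without M1 replicate 1 and 0.69 without M1 replicate 2. Leaving out either M1 array removes the spread of that line from the fit. For the other changes the cause was not tested. Signals near the array medians cannot be told from background, and those near the top may be compressed.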

Other observations

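Besides the members, the muscle enolase Eno3, chosen after its values were seen, went the opposite way to Eno2. Its log2 signal was 9.45 and 9.36 in the BL185 arrays, 10.01 and 11.29 in M1 and 11.59 and 11.94 in I1, above the parent on all 4 arrays (M1 1.24 ± 0.44, limma adjusted p = 0.291; I1 2.36 ± 0.44, adjusted p = 0.125). In the fit without M1 replicate 1 its adjusted p was 7.99e-07 in M1 and 1.08e-08 in I1. The sum of the enolase isoenzymes cannot be given, since Eno1 was not analysed here.

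Of the further HIF targets, the heme oxygenase Hmox1 (12.24 and 12.04 in BL185, 9.22 and 10.07 in M1, 10.63 and 10.38 in I1), the hormone Stc2 (11.85 and 11.75, 8.79 and 9.84, 10.11 and 10.03) and the oxidase Ero1a were also chosen after their values were seen. Their M1 differences of −2.50, −2.49 and −2.44 were larger in size than that of every member on the 1 probe set used per gene, though other probe sets of Ndrg1 (−3.36 and −2.63) and Hif1a (−2.51) differed by more. None of Hmox1, Stc2 and Ero1a passed the test over 6 arrays (adjusted p = 0.0502, 0.0609 and 0.0699). All 3 also respond to other stress pathways. Not every further HIF target was lower. Of the 33, 26 had a lower and 7 a higher mean in M1, and 21 a lower and 12 a higher mean in I1. Tfrc, also chosen after its values were seen, was above the parent on all 4 arrays (M1 1.10, I1 1.23). Lox and Tmem45a, chosen likewise, were higher in I1 (1.54 and 1.496), with M1 differences of 0.21 and −0.37. None of these differences passed the test over 6 arrays.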
